A study of Mus musculus with 9 samples.

Results

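The natural killer receptors described here are 10 mouse genes: Klrd1, Klrk1, Klrc1, Klre1, Klrb1c, Klrg1, Klra3, Klra7, Klra8 and Ncr1. They were listed by symbol, and every non-control probe whose transcript accession belongs to one of them was taken from the array files. This gave 14 probes for 9 of the 10 genes, out of 32451 genes and unnamed transcripts on the array, and no probe matched Klra3, which was not analysed here. Klrb1c had 2 probes, Klra7 and Klra8 had 3 each, and the other 6 genes had 1 each. All 9 arrays carry spleen RNA of female BALB/c mice, 1 RNA per array, on Agilent Whole Mouse Genome arrays read in 1 colour. One group of 3 had a low dietary selenium (Se) supply and was labelled non-GD, that is, without Graves' disease (non-GD low Se). Another 3 had a low Se supply and Graves' disease (GD low Se), and the last 3 had a normal Se supply and Graves' disease (GD normal Se). A non-GD group on normal Se was not analysed here, so the only comparison of selenium supply is among GD spleens, and GD normal Se against non-GD low Se differs in both disease and diet. The sources used here give neither how the disease was induced, nor the mice's age, nor what the diets contained. The labels do not say whether the replicates are separate mice, so the p-values measure the spread between these arrays, which may be technical.

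Natural killer cells kill infected or transformed cells after weighing signals from activating and inhibitory receptors on their surface. Most of these receptors are C-type lectin-like proteins encoded side by side in the natural killer gene complex on chromosome 6, and so are 9 of the 10 genes here. Ncr1 on chromosome 7 encodes NKp46, an immunoglobulin-like activating receptor that is no lectin and marks natural killer cells and related innate lymphoid cells. Activating receptors signal through small adaptor proteins such as DAP12 (Tyrobp), DAP10 (Hcst) and the Fc receptor gamma chain (Fcer1g), whereas inhibitory receptors recruit phosphatases. Some memory CD8 T cells carry several of the same receptors.

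Values are given as array levels: the log2 of the scanner's processed signal minus the 75th percentile of that array's non-control probes, so that 0 is the level of a well expressed probe and negative levels are dimmer. Of the 14 probes, 13 were well above background on at least 3 of the 9 arrays and were tested, 8 of them on all 9 arrays and 5 on fewer. Fold changes, standard errors (SE) and 2-sided adjusted p-values are from limma over all 31868 probes tested (Benjamini-Hochberg, threshold 0.05), with 3 arrays a group. On 8 arrays 72.6% to 82.6% of non-control spots passed the scanner's background test, but 58.4% did on GD normal Se replicate 3, the dimmest array, and no non-control spot was saturated. The 3 non-GD low Se arrays share slide 1 with GD low Se replicate 1, GD low Se replicates 2 and 3 share slide 2 with GD normal Se replicates 1 and 2, and GD normal Se replicate 3 is alone on slide 3, the slides being read from shared scan times and array positions. The GD normal Se and non-GD low Se arrays share no slide, so no within-slide setting exists for that comparison. Its fit with slide as a block rests on GD low Se replicate 1 to link slides 1 and 2. In each other comparison the change with slide as a block equals that within the single slide by design, and only the spread differs. These settings are therefore not separate checks of the size of a change. For GD low Se against non-GD low Se both rest on GD low Se replicate 1 as the only GD array. Between the GD groups both rest on the arrays of slide 2. Non-GD low Se replicate 3 lay between the other arrays of its group for 77.3% of 22351 probes and GD low Se replicate 2 for 69.1%, against 55.0% or less for the other 7 arrays. Leaving out both of these arrays therefore serves as a check. In whole spleen RNA, fewer cells of a type and less RNA per cell cannot be told apart.

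Receptor RNAs were mostly higher in Graves' disease spleens than in non-GD low Se spleens. In GD low Se against non-GD low Se, 8 of the 13 tested probes rose (Klrd1, Klrk1, Klre1, both Klrb1c probes, Klrg1, 1 of Klra7 and 1 of Klra8) and 1 fell (another Klra7 probe). Over all probes tested in that comparison 13.3% rose and 11.7% fell. In GD normal Se against non-GD low Se, 10 receptor probes rose and 1 fell, where 20.9% of all probes rose and 12.6% fell. Both comparisons use the same 3 non-GD low Se arrays. The receptor probes' median log2 change was 0.72 and 1.31, beside 0.08 and 0.09 over all probes. Klrb1c probe A_52_P599514 and Klra7 probe A_66_P100029 were well above background on GD arrays only and entered the test through them. Among the 8 receptor probes well above background on all 9 arrays, 6 rose and 1 fell in each comparison with non-GD low Se. Over all such probes 19.2% rose and 12.3% fell in the first, and 27.3% and 13.6% in the second. The receptor medians were then 0.66 and 0.77, beside 0.09 and 0.11. In GD normal Se against GD low Se only the Klrk1 probe rose and none fell (2 probes at an unadjusted p under 0.05), beside 1.80% of all probes rising and 0.383% falling, and the receptors' median log2 change was 0.05 beside 0.02. The counts were smaller under some settings: with slide as a block the first comparison had 5 receptor probes higher and 1 lower, within slide 1 alone 1 and 0, and without both in-between arrays 0 and 0. Calls over all probes did not fall with slide as a block, at 15.2% higher and 12.7% lower. They fell to 1.60% higher and 1.71% lower within slide 1 and to 0.235% and 0.693% without the in-between arrays. In GD normal Se against non-GD low Se the counts without those arrays were 6 and 1, beside 7.51% and 5.17% of all probes.

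**Figure D1:**
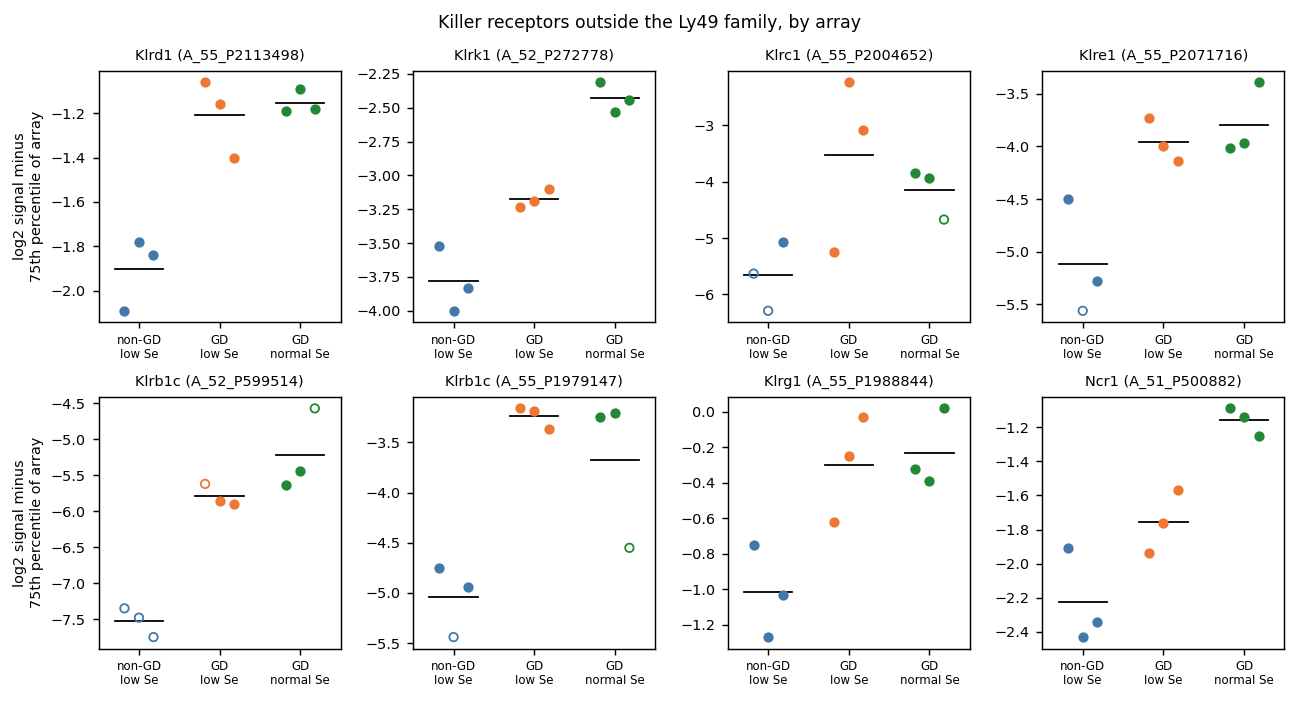
Array level (in log2 units relative to each array's 75th percentile, vertical axis, scaled separately in each panel) of the 8 probes outside the Ly49 family in the 3 groups of 3 arrays; filled points are well above background, open points are not, and the line is the group mean. Both GD groups lie above all non-GD low Se arrays for Klrd1, Klrk1, Klre1, Klrb1c and Klrg1, and the GD normal Se arrays lie highest for Klrk1 and Ncr1.

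Klrd1 encodes CD94, the shared partner chain of the NKG2 receptors, which bind the nonclassical class I molecule Qa-1. Its level was -2.09, -1.78 and -1.84 in non-GD low Se replicates 1 to 3, -1.06, -1.16 and -1.40 in GD low Se, and -1.19, -1.09 and -1.18 in GD normal Se. All 6 GD arrays were higher than all 3 non-GD arrays, and the 2 GD groups overlapped. Klrd1 rose 1.62-fold in GD low Se against non-GD low Se (log2 0.70, SE 0.13, adjusted p = 0.00684) and 1.68-fold in GD normal Se against non-GD low Se (log2 0.75, adjusted p = 0.00373). Between the GD groups the log2 difference was 0.05, with a 95% interval from -0.24 to 0.34 (adjusted p = 0.857). The rise in GD low Se was 0.84 within slide 1, where it no longer passed (adjusted p = 0.0877), and 0.70 without both in-between arrays (adjusted p = 0.112). The rise in GD normal Se passed under all 21 alternative settings run, none of them within 1 slide.

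Klrc1 encodes NKG2A, the inhibitory chain that pairs with CD94. Its probe was dim, and it was well above background on 1 non-GD low Se array, 3 GD low Se arrays and 2 GD normal Se arrays. Levels were -5.63, -6.29 and -5.07 in non-GD low Se, -5.25, -2.23 and -3.08 in GD low Se, and -3.84, -3.94 and -4.67 in GD normal Se. GD low Se replicate 1 lay among the non-GD arrays, whereas the 3 GD normal Se arrays read above them. Of these, replicate 3 was not well above background, and its -4.67 lay under the lowest well-measured level of that array, -4.13. No comparison passed: the log2 difference was 2.14 (SE 0.72, adjusted p = 0.0646) in GD low Se and 1.51 (SE 0.72, adjusted p = 0.146) in GD normal Se against non-GD low Se, and -0.63 (adjusted p = 0.659) between the GD groups. Within slide 1 the first of these was 0.41.

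Klrk1 encodes NKG2D, an activating homodimer that recognises stress-induced ligands such as the RAE-1 proteins and signals through DAP10 and DAP12. Its level was -3.52, -4.00 and -3.83 in non-GD low Se, -3.23, -3.19 and -3.10 in GD low Se, and -2.31, -2.53 and -2.44 in GD normal Se. The 3 groups did not overlap at any point and stood in the order non-GD low Se, GD low Se, GD normal Se. Each step passed the test: Klrk1 rose 1.53-fold in GD low Se against non-GD low Se (log2 0.61, SE 0.14, adjusted p = 0.0152) and 1.68-fold in GD normal Se against GD low Se (log2 0.75, SE 0.14, adjusted p = 0.0431). Across both steps it rose 2.57-fold (log2 1.36, SE 0.14, adjusted p = 0.000672), which passed under all 21 alternative settings run, none of them within 1 slide. The step between the GD groups was less firm, since it stayed between 0.60 and 0.80 on the log2 scale under 22 alternatives but missed the threshold under 15 of them. It was 0.73 within slide 2 (adjusted p = 0.0397) and with slide as a block (adjusted p = 0.0600), and it missed the threshold without any 1 of non-GD low Se replicate 3, GD low Se replicates 1, 2 or 3, or GD normal Se replicates 1 or 2. The step between the low Se groups was 0.56 within slide 1 (adjusted p = 0.217), and it missed the threshold without non-GD low Se replicate 3, GD low Se replicate 2 or GD low Se replicate 3 and fell to 0.09 with normexp background correction.

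Ncr1 (NKp46) had levels of -1.91, -2.43 and -2.34 in non-GD low Se, -1.94, -1.76 and -1.57 in GD low Se, and -1.09, -1.14 and -1.25 in GD normal Se. The low Se groups overlapped by a single array each, and the GD normal Se arrays were above all the others. Only the outer groups differed past the threshold: Ncr1 rose 2.09-fold in GD normal Se against non-GD low Se (log2 1.06, SE 0.16, adjusted p = 0.00233). The neighbouring steps were 0.47 in log2 (95% interval 0.10 to 0.84, adjusted p = 0.0661) for GD low Se against non-GD low Se and 0.59 (0.23 to 0.96, adjusted p = 0.0880) for GD normal Se against GD low Se. Within slide 2 the second step was 0.55 and passed (adjusted p = 0.0464). With slide as a block the difference of the outer groups was 0.84 and did not pass (adjusted p = 0.0881).

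Klrk1 and Ncr1 had closely similar profiles. With each probe centred on its own mean, they differed by a root mean square of 0.14 in log2 over the 9 arrays, and only 23 of 17506 other genes with a symbol lay closer to Ncr1. The nearest were Cnot9 (0.10), Rp2 (0.11), Ero1a, Gca and Cdk17 (0.12 each), so that genes outside the receptor family were nearer still. For Klrd1 the nearest genes were Hilpda, Nufip2, Abhd17b and Tmem80 (0.06 each) and Bckdha (0.07), and of the other receptor probes the Klra8 probe A_55_P2004526 was closest (0.15, with 305 genes nearer). Such a likeness over 9 arrays in 3 groups is a description of levels that share arrays and scaling.

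The promoters of Klrk1 and Ncr1 are shown because these receptors were close in profile, with the RUNX core motif TGTGGT or its reverse complement ACCACA in capitals, RUNX proteins being transcription factors active in killer cells. They are RefSeq sequences of GRCm38.p6, the C57BL/6J reference, from 250 bases before to 50 after a transcript start, at chr6:129623815-129624114 on the minus strand and chr7:4337465-4337764 on the plus strand.
Klrk1: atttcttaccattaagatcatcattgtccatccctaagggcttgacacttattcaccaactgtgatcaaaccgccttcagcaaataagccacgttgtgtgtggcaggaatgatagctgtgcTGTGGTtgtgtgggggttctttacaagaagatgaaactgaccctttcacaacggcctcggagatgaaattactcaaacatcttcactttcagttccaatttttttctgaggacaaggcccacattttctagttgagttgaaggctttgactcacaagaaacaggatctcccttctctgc
Ncr1: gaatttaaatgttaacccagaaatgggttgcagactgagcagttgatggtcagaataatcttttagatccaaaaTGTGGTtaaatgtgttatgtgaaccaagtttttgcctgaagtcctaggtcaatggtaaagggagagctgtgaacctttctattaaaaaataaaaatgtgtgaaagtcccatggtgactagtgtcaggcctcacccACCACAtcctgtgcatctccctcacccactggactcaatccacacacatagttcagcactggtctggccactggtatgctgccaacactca
Of the 10 genes, 8 had a promoter in that table, with 12 start sites in all. The RUNX core lay on either strand in 5 of the 8 (Klrk1, Klrc1, Klre1, Klrb1c and Ncr1) and in 6 of the 12 windows, beside 16.8% of 32851 mouse promoters of the same length. The Ncr1 windows overlap and hold the same matches, and those of Klre1 and of Klra8 overlap too. The 16.8% counts windows, whereas 5 of the 8 counts genes with a match in any window. The T-box core GGTGTGA (reverse complement TCACACC), the motif of T-bet and Eomes, lay in 0 of the 8, beside 3.98% of all. Neither motif contains the other, and a match is a string of letters, not a measured binding site.

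Klre1 encodes a receptor chain that pairs with the inhibitory Klri1 or the activating Klri2. It was well above background on 2 non-GD low Se arrays and on all 6 GD arrays. Levels were -4.50, -5.56 and -5.28 in non-GD low Se, -3.73, -4.00 and -4.14 in GD low Se, and -4.02, -3.97 and -3.39 in GD normal Se, so all GD arrays were above all non-GD arrays. Klre1 rose 2.23-fold in GD low Se (log2 1.15, SE 0.29, adjusted p = 0.0239) and 2.50-fold in GD normal Se (log2 1.32, adjusted p = 0.0107) against non-GD low Se, and the GD groups differed by 0.17 (95% interval -0.51 to 0.84, adjusted p = 0.781). With normexp background correction the GD low Se difference turned to -0.08. The first rise missed the threshold without non-GD low Se replicate 2 or 3 or without GD low Se replicate 1 or 2, without both of the in-between arrays (adjusted p = 0.198), and within slide 1, where it was 1.38 (adjusted p = 0.170). The rise in GD normal Se was 0.26 with normexp (adjusted p = 0.556), and it missed the threshold with slide as a block (1.46, adjusted p = 0.0961) and without both in-between arrays (adjusted p = 0.0809).

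Klrb1c encodes NKR-P1C, the activating receptor that carries the NK1.1 antigen in C57BL/6 mice; the NK1.1 antibody does not stain BALB/c cells, but the gene is present. Its probe A_55_P1979147 had levels of -4.75, -5.44 and -4.94 in non-GD low Se, -3.16, -3.19 and -3.37 in GD low Se, and -3.25, -3.21 and -4.55 in GD normal Se, where replicate 3 was not well above background. The GD arrays were all above the non-GD arrays. The probe rose 3.49-fold in GD low Se (log2 1.80, SE 0.36, adjusted p = 0.00966) and 2.60-fold in GD normal Se (log2 1.38, adjusted p = 0.0207) against non-GD low Se. With normexp background correction neither rise passed (0.27, adjusted p = 0.168, and 0.32, adjusted p = 0.138). The rise in GD low Se also missed the threshold within slide 1 (1.88, adjusted p = 0.0742) and without both in-between arrays (adjusted p = 0.115). The rise in GD normal Se missed it without both in-between arrays (adjusted p = 0.0959), with only the 2 groups in the fit, and without any 1 of non-GD low Se replicates 2 or 3 or GD normal Se replicates 1 or 2.
The second Klrb1c probe, A_52_P599514, was not well above background on any non-GD low Se array and on 2 arrays of each GD group. Its measured levels were -7.35, -7.48 and -7.75, then -5.62, -5.86 and -5.90, then -5.63, -5.44 and -4.57 in the same order of groups. Its measured levels were higher in both GD groups (adjusted p = 0.00377 and 0.00105), but no fold can be given for either. The GD low Se mean lay below the background limit of the non-GD low Se arrays, and the GD normal Se mean lay above it only through replicate 3, where the probe was itself not well above background (ratio to the limit 0.976 without it). With normexp background correction the difference turned to -0.41 in GD low Se and was 0.09 in GD normal Se (adjusted p = 0.900), and without both in-between arrays the first call ended (adjusted p = 0.0770). The 2 probes' changes did not differ past the threshold in any comparison (log2 difference of the changes -0.07, SE 0.58, adjusted p = 0.952 for GD low Se against non-GD low Se, and 0.94, adjusted p = 0.250, for GD normal Se against non-GD low Se).

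Klrg1 encodes an inhibitory receptor for cadherins found on mature killer cells and effector T cells. Its level was -0.75, -1.27 and -1.03 in non-GD low Se, -0.62, -0.25 and -0.03 in GD low Se, and -0.32, -0.39 and 0.02 in GD normal Se. All GD arrays were higher than all non-GD arrays, with GD low Se replicate 1, which shares their slide, the nearest to them. Klrg1 rose 1.65-fold in GD low Se (log2 0.72, SE 0.20, adjusted p = 0.0346) and 1.73-fold in GD normal Se (log2 0.79, adjusted p = 0.0193) against non-GD low Se. The GD groups differed by 0.07 (95% interval -0.40 to 0.53, adjusted p = 0.876). With slide as a block the changes were 0.40 (adjusted p = 0.211) and 0.18 (adjusted p = 0.657), and the first missed the threshold under 11 of 22 alternatives, among them leaving out non-GD low Se replicate 2 or 3, GD low Se replicate 2 or 3, or GD normal Se replicate 1. The second missed it without non-GD low Se replicate 2 or 3.

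The Klra genes encode the Ly49 receptors, the mouse counterparts of the human killer immunoglobulin-like receptors, which bind classical class I molecules. Klra3 (Ly49C) and Klra7 (Ly49G) are inhibitory, and Klra8 (Ly49H) is an activating receptor known from C57BL/6 mice. BALB/c mice carry a shorter Ly49 cluster that lacks the genes Klra8 and Klra4 (Ly49D). The family arose by duplication and its members are alike in sequence, so a probe designed on one can pair with RNA of another, and which transcripts the Klra7 and Klra8 probes paired with here was not tested. The likeness is visible in the promoters, given here as RefSeq GRCm38.p6 sequences of the minus strand at chr6:130233273-130233572, chr6:130129849-130130148 and chr6:130337577-130337876, again of the C57BL/6J reference.
Klra7: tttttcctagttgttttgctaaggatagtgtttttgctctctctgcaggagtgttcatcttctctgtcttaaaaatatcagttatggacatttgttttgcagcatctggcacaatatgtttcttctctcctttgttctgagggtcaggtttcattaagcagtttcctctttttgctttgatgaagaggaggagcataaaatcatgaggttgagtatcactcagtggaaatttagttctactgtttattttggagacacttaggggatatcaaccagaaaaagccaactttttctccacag
Klra8: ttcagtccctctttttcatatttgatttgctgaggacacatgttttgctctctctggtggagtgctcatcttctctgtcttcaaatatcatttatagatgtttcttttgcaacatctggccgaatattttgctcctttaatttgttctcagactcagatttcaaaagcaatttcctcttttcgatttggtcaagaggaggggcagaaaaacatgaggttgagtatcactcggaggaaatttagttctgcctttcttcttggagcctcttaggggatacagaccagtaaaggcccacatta
Klra3: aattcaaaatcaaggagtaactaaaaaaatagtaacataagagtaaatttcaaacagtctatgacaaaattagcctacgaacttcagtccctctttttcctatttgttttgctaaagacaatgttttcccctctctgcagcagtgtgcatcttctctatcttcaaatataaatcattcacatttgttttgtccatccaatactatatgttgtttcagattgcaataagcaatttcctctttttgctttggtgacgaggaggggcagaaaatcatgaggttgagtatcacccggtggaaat
Over their aligned stretches the Klra7 and Klra8 windows were 79.9% identical (289 columns), Klra7 and Klra3 84.5% (207 columns), and Klra8 and Klra3 84.3% (217 columns). Klra7 has another start site in the table, and its window aligned with that of Klra3 over only 29 columns (72.4%) and with those of Klra8 over 5 or fewer.

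**Figure D2:**
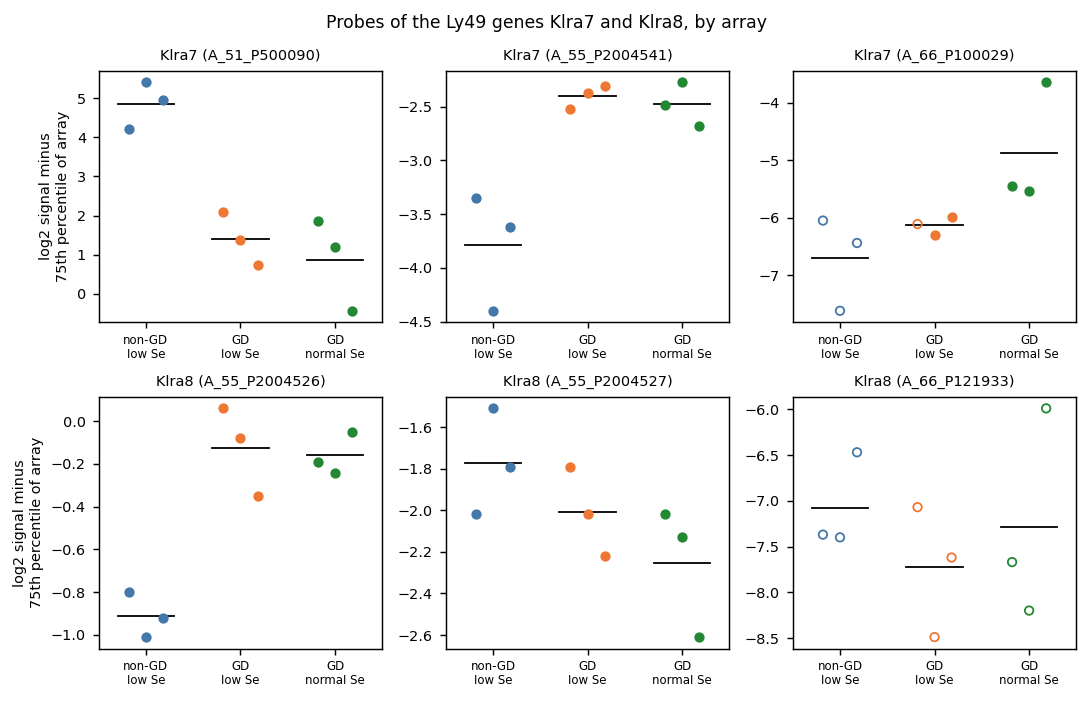
Array level (in log2 units relative to each array's 75th percentile, vertical axis, scaled separately in each panel) of the 3 Klra7 and 3 Klra8 probes in the 3 groups of 3 arrays; filled points are well above background, open points are not, and the line is the group mean. Klra7 probe A_51_P500090 lies between 4.21 and 5.41 in non-GD low Se and at 2.09 or below on the GD arrays, while probe A_55_P2004541 of the same gene lies lower in non-GD low Se.

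The 3 Klra7 probes disagreed. Probe A_51_P500090 had levels of 4.21, 5.41 and 4.94 in non-GD low Se, 2.09, 1.37 and 0.74 in GD low Se, and 1.86, 1.20 and -0.43 in GD normal Se. Every GD array was lower than every non-GD array. This probe was 11.0-fold lower in GD low Se (log2 -3.46, SE 0.62, adjusted p = 0.00657) and 15.8-fold lower in GD normal Se (log2 -3.98, adjusted p = 0.00269) against non-GD low Se, and the GD groups differed by -0.52 (95% interval -1.96 to 0.91, adjusted p = 0.671).
Probe A_55_P2004541 had levels of -3.35, -4.40 and -3.62 in non-GD low Se, -2.52, -2.37 and -2.31 in GD low Se, and -2.48, -2.27 and -2.68 in GD normal Se, so here the GD arrays were all higher. It rose 2.62-fold in GD low Se (log2 1.39, SE 0.26, adjusted p = 0.00723) and 2.48-fold in GD normal Se (log2 1.31, adjusted p = 0.00662), and the GD groups differed by -0.08 (95% interval -0.67 to 0.51). The first rise missed the threshold with normexp background correction (0.48, adjusted p = 0.0517), with slide as a block (1.28, adjusted p = 0.0615), within slide 1 (adjusted p = 0.190) and without both in-between arrays (adjusted p = 0.0920). The second missed it with slide as a block (1.24, adjusted p = 0.140).
Probe A_66_P100029 was well above background on no non-GD low Se array, on 2 GD low Se arrays and on all 3 GD normal Se arrays. Its measured levels were -6.05, -7.62 and -6.44, then -6.11, -6.30 and -5.98, then -5.45, -5.53 and -3.64, with GD normal Se replicate 3 the highest. It was at least 1.54-fold higher in GD normal Se than in non-GD low Se (adjusted p = 0.0389), a bound that rested on replicate 3 and was 1.01 without it. The call ended under 13 of 20 alternatives, among them leaving out non-GD low Se replicate 2 or 3, any 1 GD low Se array or GD normal Se replicate 3.

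The disagreement was itself tested as the difference between each probe's change and that of the probe of the gene with the highest mean, over 5250 such pairs on the array. In GD low Se against non-GD low Se the change of A_55_P2004541 was higher than that of A_51_P500090 by 4.85 on the log2 scale (SE 0.73, adjusted p = 0.00310), and the change of A_66_P100029 was higher than that of A_51_P500090 by 4.03 (adjusted p = 0.0349). In GD normal Se against non-GD low Se the differences were 5.29 (adjusted p = 0.00169) and 5.81 (adjusted p = 0.00652). Differences of this kind were common on the array, at 26.9% of pairs in the first comparison and 35.6% in the second, against 2.29% between the GD groups, where no pair of receptor probes differed.

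The fall of probe A_51_P500090 went along with that of a control spot. The spot E1A a107, 1 of 10 control probes whose names begin with E1A, read 4.72, 5.85 and 5.35 in non-GD low Se, 2.51, 1.71 and 1.01 in GD low Se, and 2.37, 1.43 and 0.87 in GD normal Se. It ranked the 3 arrays of each of the 3 groups in the same order as the Klra7 probe. The centred profiles of the 2 differed by a root mean square of 0.30, and 139 of the 31868 tested probes lay closer to the control spot than this Klra7 probe did. Probes called at least 4-fold lower in GD low Se against non-GD low Se numbered 1439. The control spot was singled out after its values were seen, and the values of the other E1A probes are not reported here. A probe of Klrb1b, A_55_P1964325, had a like course, from -0.16, 1.71 and 0.84 in non-GD low Se to between -2.57 and -4.83 on the GD arrays (log2 -3.98, SE 0.64, adjusted p = 0.00451 for GD low Se), while its other 2 probes, not well above background on 6 of the 9 arrays each, changed by -0.03 and 0.04. Klra1 (Ly49A) fell as well, from 7.63, 7.65 and 7.54 to between 5.48 and 6.54 on the GD arrays (log2 -1.64, adjusted p = 0.00520). The part of whatever moved the control spot in the Klra7 fall was not tested. Within slide 1 the Klra7 fall was -2.76 (adjusted p = 0.0835), without both in-between arrays it was -3.40 (adjusted p = 0.0993), and with slide as a block the fall in GD normal Se was -2.29 (adjusted p = 0.0726).

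**Figure D3:**
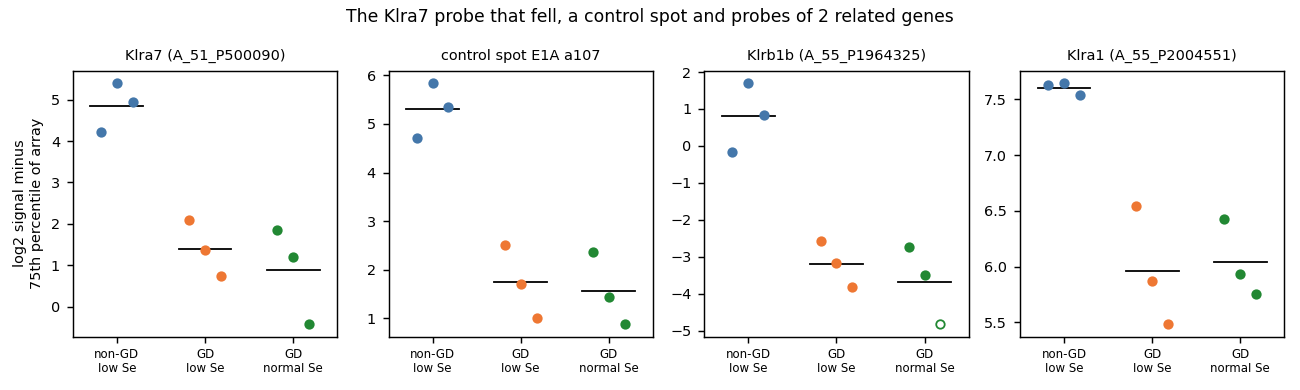
Array level (in log2 units relative to each array's 75th percentile, vertical axis, scaled separately in each panel) of Klra7 probe A_51_P500090, the control spot E1A a107 and the probes of Klrb1b and Klra1 named in the titles, in the 3 groups of 3 arrays; open points are not well above background (not marked for the control spot) and lines are group means. All 4 panels have the non-GD low Se arrays above every GD array.

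Of the 3 Klra8 probes, A_55_P2004526 had levels of -0.80, -1.01 and -0.92 in non-GD low Se, 0.06, -0.08 and -0.35 in GD low Se, and -0.19, -0.24 and -0.05 in GD normal Se. All GD arrays were above all non-GD arrays. It rose 1.73-fold in GD low Se (log2 0.79, SE 0.13, adjusted p = 0.00470) and 1.68-fold in GD normal Se (log2 0.75, adjusted p = 0.00387) against non-GD low Se. The rise in GD normal Se passed under all 21 alternative settings run, none within 1 slide. Within slide 1 the first rise was 0.97 (adjusted p = 0.0591), and without both in-between arrays 0.76 (adjusted p = 0.102).
Probe A_55_P2004527 had levels of -2.02, -1.51 and -1.79, then -1.79, -2.02 and -2.22, then -2.02, -2.13 and -2.61 in the same order of groups, with overlap of all groups. Its changes did not pass (-0.24, 95% interval -0.71 to 0.24, adjusted p = 0.445 in GD low Se, and -0.48, adjusted p = 0.110, in GD normal Se, both against non-GD low Se). The 2 probes' changes differed by -1.02 (SE 0.24, adjusted p = 0.0172) and -1.23 (adjusted p = 0.00637) in these comparisons. The third probe, A_66_P121933, was not well above background on any array and was not tested.

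**Figure D4:**
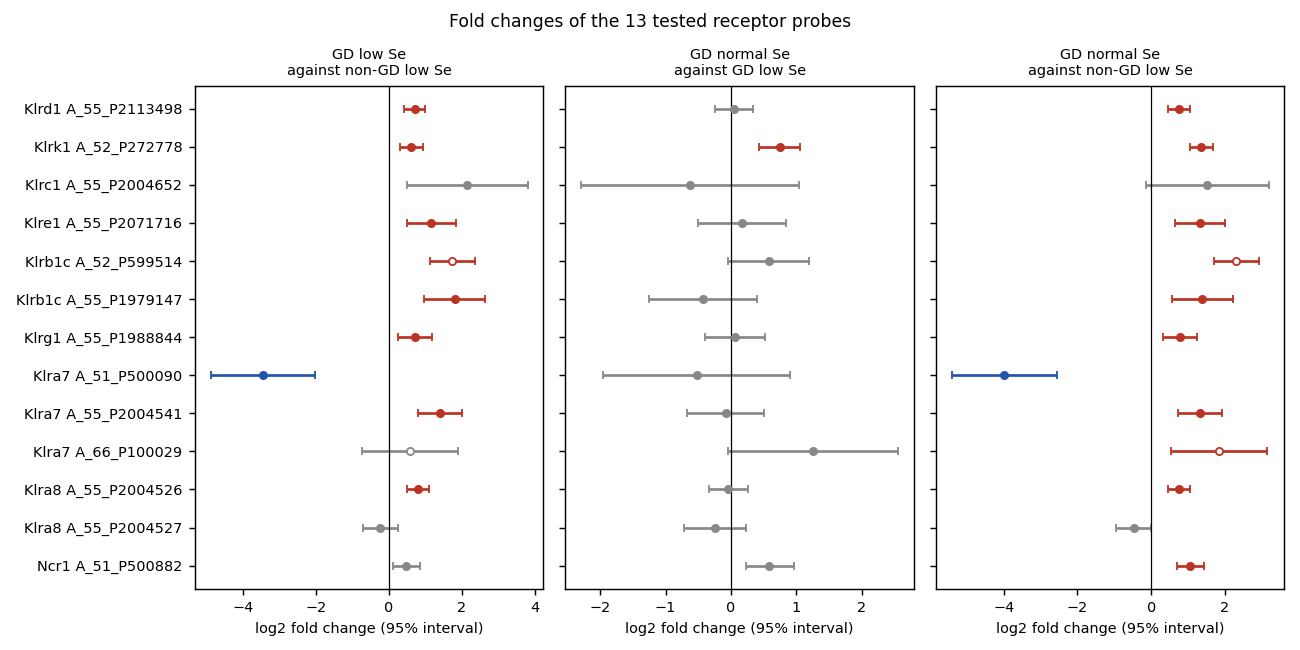
Log2 fold change with its 95% interval from limma (horizontal axis, scaled separately in each panel) of the 13 tested receptor probes in the 3 comparisons; red passed the test upward, blue downward, grey did not pass, and open points belong to probes not well above background on any array of 1 group, whose size is not a measured fold. Most points of the left and right panels lie above 0, with Klra7 probe A_51_P500090 at -3.46 and -3.98, and only Klrk1 is coloured in the middle panel.

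The other killer receptor genes, a list of 17 with 14 tested by the probe with the highest mean, also rose more often than they fell. In GD low Se against non-GD low Se 5 rose and 2 fell (35.7% and 14.3%, beside 13.3% and 11.7% of all probes, with a median log2 change of 0.83), and in GD normal Se 8 rose and 2 fell (57.1% and 14.3%, beside 20.9% and 12.6%, with a median of 0.76), the genes that fell being Klra1 and Klrb1b. Klrc3, which encodes NKG2E, another partner of CD94, went from -5.30, -5.55 and -5.46 in non-GD low Se to -3.68, -3.44 and -3.47 in GD low Se and -2.93, -2.80 and -2.80 in GD normal Se. Its 3 groups did not overlap and each step passed, by 1.91 (adjusted p = 0.000153) and 0.68 (adjusted p = 0.0374) on the log2 scale, each with an SE of 0.11, although in non-GD low Se only 1 of 3 arrays was well above background and its other 2 probes were too dim to test. Klri2, the activating partner of Klre1, rose by 1.27 in GD low Se (adjusted p = 0.0139) and 0.84 in GD normal Se (adjusted p = 0.0488). The probe named for Klra4, a gene that the BALB/c cluster lacks, read higher by 1.14 (adjusted p = 0.0246) and 0.92 (adjusted p = 0.0414), and which transcript it paired with was not tested. With normexp background correction the list's median in GD low Se was -0.04 and no member passed upward, beside 7.88% of all probes. Without both in-between arrays 1 did, beside 0.235%. The list's summed level, not in log2, went against the counts of genes. It was 189 to 205 in non-GD low Se, 46.1 to 94.6 in GD low Se and 55.0 to 88.0 in GD normal Se. Bright genes weigh most in such a sum. Klra1, which fell, was the brightest of the list, with a mean level of 7.61 in non-GD low Se. Klrb1b, which also fell, was next at 0.79.

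Among 11 tested adaptors and signalling proteins of the receptors, 4 rose and 2 fell in GD low Se (36.4% and 18.2%, beside 13.3% and 11.7% of all probes) and 4 rose and 1 fell in GD normal Se against non-GD low Se (36.4% and 9.09%, beside 20.9% and 12.6%). The list's medians were 0.16 and 0.32. Fcer1g rose by 0.64 (SE 0.15, adjusted p = 0.0202) and 1.12 (adjusted p = 0.00174), and Tyrobp by 0.71 in GD normal Se (adjusted p = 0.00958). Lcp2, the scaffold SLP-76, rose by 0.79 and 1.21 (adjusted p = 0.0250 and 0.00342). Cd247, the zeta chain shared with the T cell receptor, fell by 1.11 (adjusted p = 0.0264) and 1.02 (adjusted p = 0.0277), and Ptpn6, the phosphatase SHP-1 recruited by inhibitory receptors, fell by 0.35 in GD low Se (adjusted p = 0.0466). With slide as a block 1 adaptor rose in GD low Se and 0 in GD normal Se.

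Ligands of the receptors showed smaller medians, -0.16 and 0.16 over 12 tested genes, with 2 rising and 1 falling in GD low Se (16.7% and 8.33%, near the 13.3% and 11.7% of all probes) and 4 rising and 1 falling in GD normal Se (33.3% and 8.33%, beside 20.9% and 12.6%). Clec2d, the ligand of Klrb1b, rose by 0.60 (SE 0.13, adjusted p = 0.0151) and 0.72 (adjusted p = 0.00527), and Ulbp1, a ligand of NKG2D, by 0.59 (adjusted p = 0.0270) and 0.60 (adjusted p = 0.0186). The class I genes H2-K1 and B2m rose in GD normal Se, by 0.52 (adjusted p = 0.0192) and 0.45 (adjusted p = 0.0111). The cadherin Cdh1, a ligand of Klrg1, fell by 0.88 in GD low Se (adjusted p = 0.0158), with a difference of -0.14 in GD normal Se (adjusted p = 0.628). Another cadherin, Cdh2, fell by 2.15 in GD normal Se (adjusted p = 0.0132), with a difference of -1.46 in GD low Se (adjusted p = 0.0669). The median for GD low Se changed sign to 0.01 in the authors' deposited log2 table and to 0.05 with slide as a block.

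Of 11 tested transcription factors of killer cells, 3 rose and 1 fell in GD low Se and 6 rose in GD normal Se (medians 0.25 and 0.39), that is 27.3% rising and 9.09% falling in the first comparison, beside 13.3% and 11.7% of all probes, and 54.5% rising in the second, beside 20.9%. Zeb2, needed for killer cell maturation, rose by 1.32 (SE 0.12, adjusted p = 0.000690) and 1.79 (adjusted p = 0.000211), Id2 by 0.63 and 0.61 (adjusted p = 0.00372 and 0.00302), and Eomes by 0.48 in GD normal Se (adjusted p = 0.0246). Ikzf2 was the factor that fell, by 0.67 in GD low Se (adjusted p = 0.00820). Of 15 cytotoxic effectors, 4 rose in GD low Se and 6 in GD normal Se and none fell (26.7% and 40.0% rising, medians 0.07 and 0.34). Most of the 15 thus passed in neither direction in either comparison. Gzma rose by 1.74 and 1.88 (adjusted p = 0.0113 and 0.00604), Gzmb by 1.42 and 2.17 (adjusted p = 0.0261 and 0.00372), and Tnfsf10, the death ligand TRAIL, by 1.22 and 1.72 (adjusted p = 0.000259 and 9.60e-05). Tnfsf10 also rose between the GD groups, by 0.50 (adjusted p = 0.0371). Of 15 other natural killer markers, 3 rose and 2 fell in GD low Se and 5 rose in GD normal Se (medians -0.07 and 0.41). The shares in GD low Se, 20.0% rising and 13.3% falling, were near those of all probes, and in GD normal Se 33.3% rose. The summed level of these markers, not in log2, went against the counts of genes in GD normal Se. Its median was 103 in non-GD low Se, 98.0 in GD low Se and 68.8 in GD normal Se. It was at most 69.3 on the GD normal Se arrays and at least 90.4 on the arrays of both low Se groups. Such a sum weighs bright genes most. S1pr5, the sphingosine receptor of mature killer cells, rose by 1.32 (adjusted p = 0.00903) and 1.23 (adjusted p = 0.00872), Cd226 by 0.70 and 1.10 (adjusted p = 0.00293 and 0.000486), and Cd96, a receptor shared with T cells, fell by 0.78 in GD low Se (adjusted p = 0.00969). Cx3cr1 fell there too, by 0.55 (adjusted p = 0.0386). Between the GD groups 1 of 14 other killer receptors, 1 of 15 effectors, 1 of 15 natural killer markers (Slamf7, 0.74, adjusted p = 0.0311) and none of the adaptors, ligands or transcription factors passed. Of all probes 1.80% rose and 0.383% fell there.

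**Figure D5:**
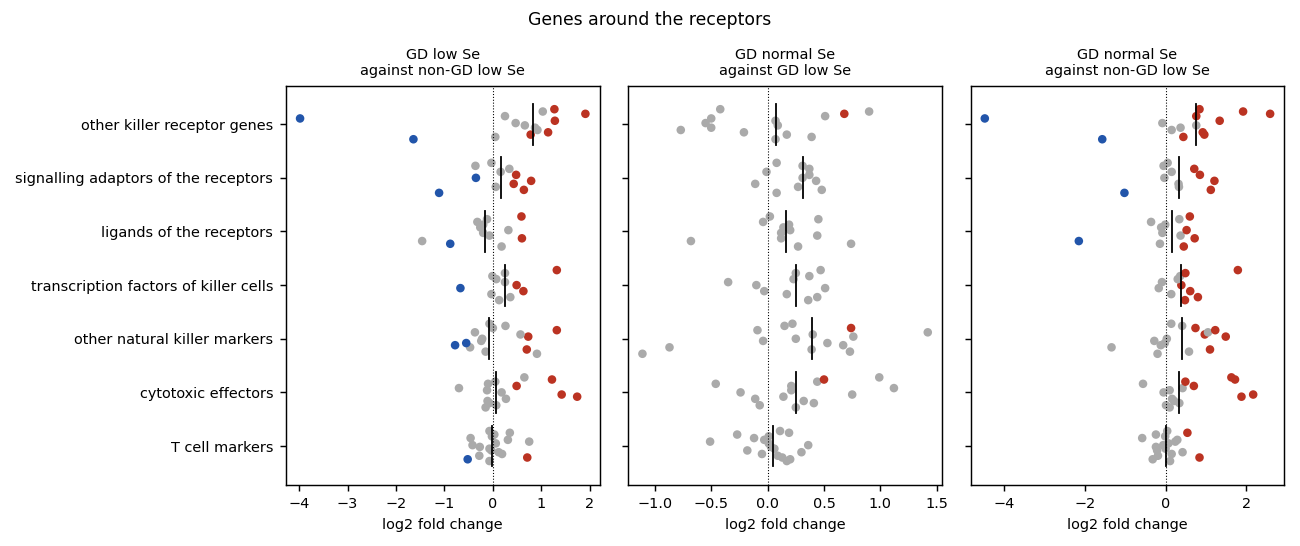
Log2 fold change (horizontal axis, scaled separately in each panel) of the tested genes of 7 lists in the 3 comparisons, 1 point a gene by its probe with the highest mean; red passed the test upward, blue downward, grey did not pass, and the black bar is the list's median. The other killer receptor genes have medians of 0.83 and 0.76 in the comparisons with non-GD low Se, and the T cell markers -0.03 and 0.02.

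Markers of other cells differed between the same groups. Over all probes 13.3% rose and 11.7% fell in GD low Se, and 20.9% and 12.6% in GD normal Se, against non-GD low Se. Of 18 markers of T cells, some of which carry the same receptors as killer cells, 1 rose and 1 fell in GD low Se and 2 rose in GD normal Se. Their summed level, relative to the 75th percentile, ranged from 72.1 to 117 in non-GD low Se, 85.0 to 96.4 in GD low Se, and 90.9 to 93.8 in GD normal Se. Macrophage markers moved with the receptors: 7 of 12 rose in GD low Se and 10 of 12 in GD normal Se, and their summed level was at most 53.7 in non-GD low Se, 78.7 to 84.3 in GD low Se and 84.7 to 100 in GD normal Se. Fcer1g and Tyrobp are also expressed by macrophages. B cell markers had a summed level of 183 to 214, 159 to 163 and 180 to 193 in the same order, with 0 rising and 4 falling in GD low Se and 3 rising and 2 falling in GD normal Se. Fat tissue markers, at 3.54 to 9.90 in non-GD low Se and 4.43 to 5.49 in GD normal Se, reached 11.4 to 80.5 in GD low Se, where 5 of 10 rose. Erythroid markers summed to 195 to 552, 376 to 441 and 332 to 338, and none of 12 passed; pancreas markers summed to at most 1.40 in any group, with 1 of 10 falling in GD low Se and 1 rising and 1 falling in GD normal Se. The part of these cells in the receptors' changes was not tested.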

How the data were processed

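Per the labels' protocols, spleen RNA was labelled by the one-colour Agilent protocol and hybridised to 9 whole mouse genome arrays. Per the file headers, the scanner output was made with version 11.0.1.1 of Agilent Feature Extraction. The deposited values used are the processed signal, a background-corrected intensity per spot, with the scanner's own marks. The authors' deposited table holds log2 values (median 6.43, normalization not stated) and served as an alternative; its 3 non-GD low Se columns matched another array of that group better than their own. Control spots and spots marked as outliers were left out, spots of a probe were averaged, and log2 intensity minus each array's 75th percentile was tested in limma 3.58.1 (R 4.3.3; all 9 arrays, 3 groups, no block, residual df 6). Tested probes were well above background on at least 3 of 9 arrays; of 39429 probes, 7510 were left out as too dim and 51 for marks. Probes were named through accessions (27234 with a symbol), matched to a RefSeq table. A probe below background on a whole group has only a bound: the bright group's mean over the dim group's mean of, per array, the higher of the lowest well-measured signal and the probe's own. The fits were tested on simulated data. Named were all probes of the listed receptors; of each other list up to 6 passing genes, and any of the other receptors and adaptors; and the 5 genes nearest in profile to Klrd1 and to Ncr1. Members and lists were chosen with earlier results of these data known. The control spot was singled out after its values were seen. Normexp (offset 50) used the median signal, the mean signal column being not used here. Alternatives were other scalings, filters, blocks, single slides and left-out arrays. The number of arrays limits the precision.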

Additional observations from a re-analysis of the deposited data

How the results depend on the processing

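The receptor counts of GD low Se against non-GD low Se were 8 higher and 1 lower. They were 2 higher with normexp background correction, 5 with slide as a block, 1 higher and 0 lower within slide 1, and 0 and 0 without both in-between arrays. With the mean of the probes of each gene 5 of 9 genes were higher and 0 lower. Leaving out single arrays gave 5 to 9 higher, lowest without non-GD low Se replicate 3 or GD low Se replicate 2. Of all probes, 15.2% were higher with slide as a block, 1.60% within slide 1, 0.235% without both in-between arrays and 5.80% to 22.7% with single arrays left out. The count of 1 in GD normal Se against GD low Se became 0 with normexp, quantile normalization, median scaling and the authors' log2 table. It was also 0 with no filter on dim probes, only the 2 groups compared or slide as a block. Without both in-between arrays and with the brightest probe of each gene it was 0 too. It was 2 of 8 probes with the filter for all 9 arrays and 2 of 13 within slide 2, beside 7.09% and 7.83% of all probes higher. When single arrays were left out it was 0 to 1. In GD normal Se against non-GD low Se 10 became 6 with normexp, with the filter for all 9 arrays, without both in-between arrays and with the mean of the probes, and 5 with slide as a block; the 1 lower became 0 with slide as a block and with the mean of the probes. Pairs of probes that differ numbered 0 within slide 1 and 1 to 3 with single arrays left out in the first comparison, and 0 with slide as a block in GD normal Se against non-GD low Se. Normexp reversed Klrb1c probe A_52_P599514 (-0.41) and Klre1 (-0.08) in GD low Se against non-GD low Se; the cause was not tested. It moved the median of all probes there to -0.17 (median scaling to 0.19) and the share of all probes higher and lower from 13.3% and 11.7% to 7.88% and 11.4%; quantile normalization gave 0.238% and 0.107% between the GD groups. With the replicate number as a block the counts were 7 higher and 1 lower, 0 and 0, and 10 and 1, and the median of all probes was not moved. Deviations of same-numbered arrays correlated between -0.21 and 0.09, and 0 of the 9 arrays correlated best with its own number in both other groups. No pairing by number was seen. The check cannot exclude pairing, since the authors' non-GD low Se columns matched other arrays of that group better than their own. Probes below background on some arrays, 5 of the 13, are limited by signal over background.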
